A study of Homo sapiens with 6 samples.

Results

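Human chromosome 19 carries many KRAB zinc finger genes, and 148 of the 13721 gene names in an annotation of U-87 MG, a long-established glioma cell line of human origin, were ZNF names on this chromosome. A gene was taken when its exon rows lay on chromosome 19 and its name was ZNF, a number and at most 1 letter. The series holds 3 libraries of cells given EPZ015666 at 10 uM for 72 h, which inhibits PRMT5, an enzyme that methylates arginines, and 3 libraries of cells given 10 ul of the vehicle DMSO per 10 ml of medium for 72 h. Both groups are the same line, and the labels do not say whether replicates are separate cultures. The deposited file is 1 exon annotation in hg19 coordinates, made for both groups together, with poly(A)-selected RNA as its source. Positions are its only numbers, so levels, depth and the spread between replicates are unknown. EPZ015666 and DMSO cells could therefore not be compared, and the line could not be checked against expression of its markers.

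Zinc finger proteins of this class bind DNA through a row of C2H2 fingers, each a short loop held by a pair of cysteines and a pair of histidines around a zinc ion. Many also carry a KRAB domain near the start, which recruits the corepressor TRIM28 and, through it, the histone methyltransferase SETDB1 and HP1 proteins, and much of this silencing falls on transposable elements. In the gene, short exons code the KRAB A and B boxes and 1 long last exon usually codes all the fingers. A transcript that ends before that exon can code a KRAB domain but no DNA-binding fingers.

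The reference annotation, GENCODE v29 (GRCh38), shows this layout for the genes described here. Of the 148 names, 147 were found there on chromosome 19 and the same strand, the exception being ZNF788. A finger pattern (cysteine, 2 to 4 residues, cysteine, 12 residues, histidine, 3 to 5 residues, histidine) was present in 145, and in 138 of them (95.2%) 1 exon coded every finger. That exon was the last one in 136 of 145. Neighbouring fingers started 84 bases apart, which is 28 residues, in 1429 of 1583 pairs (90.3%). A KRAB A pattern lay upstream of the fingers in 116 genes, and in 103 of these (88.8%) its exon had 127 bases.

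The parts on which the results turn are shown here from the reference transcripts. The KRAB A exons come from ZNF274, which binds clusters of zinc finger genes, and from ZNF649. They lie at chr19:58185712-58185838 (plus strand) and chr19:51896852-51896978 (minus strand) of GRCh38, and the capitals mark the codons of the KRAB A pattern.
ZNF274 KRAB A exon: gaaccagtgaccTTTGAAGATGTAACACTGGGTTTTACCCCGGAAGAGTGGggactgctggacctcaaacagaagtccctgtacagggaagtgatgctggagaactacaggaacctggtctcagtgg
ZNF649 KRAB A exon: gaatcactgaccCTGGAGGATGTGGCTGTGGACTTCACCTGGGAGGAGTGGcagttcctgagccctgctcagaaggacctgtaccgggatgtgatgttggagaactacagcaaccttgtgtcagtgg
The ZNF649 and ZNF274 exons were alike at 92 of 127 bases (72.4%).

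The next exon of ZNF649, at chr19:51896472-51896567 (minus strand, GRCh38), is where its listed isoform ends. The first finger of ZNF649, at chr19:51891515-51891598 (minus strand), lies in the long exon, and the capitals mark the cysteine and histidine codons that hold the zinc.
ZNF649 last listed exon: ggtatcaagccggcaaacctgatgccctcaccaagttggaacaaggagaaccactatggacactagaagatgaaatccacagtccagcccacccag
ZNF649 first finger and linker: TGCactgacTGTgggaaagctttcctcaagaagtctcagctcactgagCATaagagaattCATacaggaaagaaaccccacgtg
The last listed exon was in the annotation and the finger was not, as described next.

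The finger exon was listed for some of these genes and left out for others. Reference exons were placed in the file by introns of the same length, or by splice sites of the same spacing, which was possible for 115 genes with fingers. In 58 of them (50.4%, 95% Wilson interval 41.4 to 59.4) at least 1 listed isoform held every finger. In 13 (11.3%, 6.73 to 18.4) the isoform with most held part of them, and in 44 (38.3%, 29.9 to 47.4) no listed isoform held a finger. ZNF genes on other chromosomes, placed in the same way, had all fingers in 117 of 176 (66.5%, 59.2 to 73) and none in 39 (22.2%, 16.7 to 28.9). Summed over the 115 genes, 813 of 1392 reference fingers were listed (58.4%). These intervals cover counting error over genes, which are not independent replicates.

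**Figure D1:**
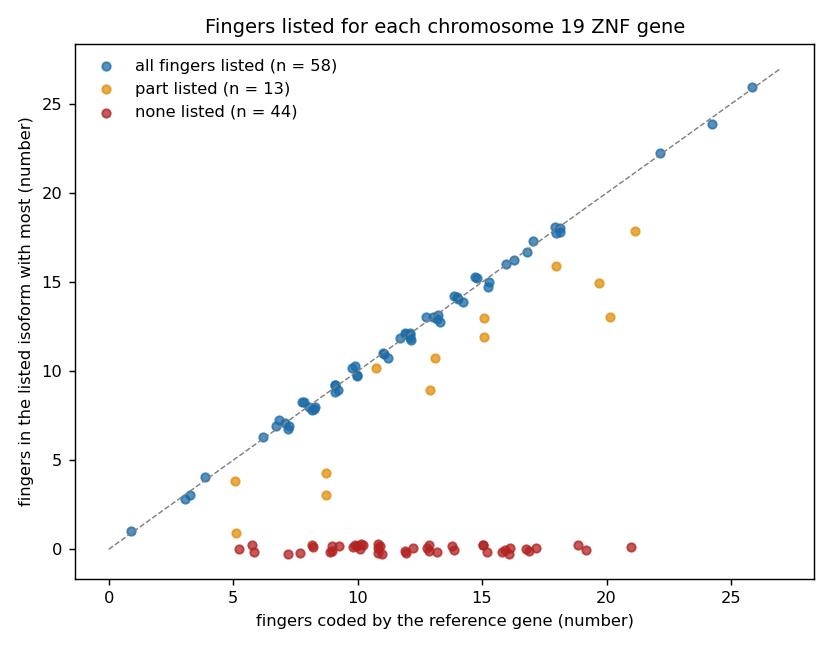
Fingers in the listed isoform with most (vertical axis, number) against fingers coded by the reference gene (horizontal axis, number) for the 115 placed genes, with points spread slightly so that they can be told apart. The 58 genes with all fingers lie on the dashed line of equal numbers, 13 lie below it and 44 lie at 0.

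The genes listed in full span the whole range of sizes. ZNF845 was listed with 26 of 26 fingers in a final exon of 3729 bases, ZNF836 with 24 of 24 and ZNF546 with 22 of 22. ZNF350, also called ZBRK1, a partner of BRCA1, had 8 of 8 fingers in a final exon of 1871 bases, and its KRAB A exon of 127 bases was listed 2 exons upstream of it. Its second listed exon had 9496 bases. In 57 of these 58 genes (98.3%) the listed isoform ended past the reference stop codon. The median distance over the 58 was 1206 bases along the chromosome, with any intron in between counted.

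The genes with no finger were mostly listed up to their KRAB exons. Of the 44, 39 have a KRAB A pattern in the reference, and in 35 of these (89.7%, 76.4 to 95.9) the whole pattern was listed. Over all placed KRAB genes it was listed in 92 of 99 (92.9%, 86.1 to 96.5), so this share is not particular to the genes with no finger. KRAB genes had no finger in 39 of 99 placed (39.4%, 30.3 to 49.2), against 5 of 16 placed genes without a KRAB pattern (31.2%, 14.2 to 55.6), and these intervals overlap. ZNF649, a KRAB repressor, was listed with 4 exons of 139, 202, 127 and 96 bases and 0 of 10 fingers. ZNF274 was listed with 7 exons and 0 of its 5 fingers, and its last exon of 127 bases is a reference internal exon, a later one than the KRAB A exon printed above. Both stop short of the exon that codes the fingers.

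The place at which these genes end was usually the same. Set against the reference transcript with most fingers, the isoform with most exons ended within 2 bases of one of its splice donors in 28 of the 44, 26 of them at the exon next before the finger exon. With exact donors of any reference transcript of the gene, all isoforms ended at a donor in 33 of the 44 (75%). Among the 28, the last exon was the first exon with a KRAB A pattern in 2 (ZNF71 and ZNF304) and a later exon in 22. Whether a later exon holds a second KRAB domain was not examined. The KRAB genes of the ZNF155 and ZNF221 neighbourhood show the pattern several times. ZNF221, ZNF155, ZNF223 and ZNF225 each ended with an exon of 93 bases, and ZNF230 with 1 of 87 bases, while their reference fingers number 15, 11, 8, 17 and 7. ZNF440, ZNF555 and ZNF791 ended with 61 bases, and ZNF486, ZNF430, ZNF543 and ZNF805 with 96. In another 2, ZNF561 and ZNF443, the last exon began at the finger exon's own acceptor and stopped after 271 and 404 bases, before the first finger. Among the remaining genes, ZNF626 had a last exon of 746 bases, ZNF85 1177 and ZNF226 446.

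In 3 genes the listed isoform went round the fingers instead. ZNF284 listed 90 bases of its finger exon, an intron of 2738 bases (chr19:44589957-44592694, hg19) that holds all 11 fingers, and then 1072 bases beyond them. ZNF776 listed 89 bases, an intron of 3492 bases (chr19:58264748-58268239) over all 9 fingers, and 1288 bases beyond. Both introns begin with GT and end with AG in the reference transcript. ZNF773 joined its exon of 99 bases across 7621 bases to an exon of 130 bases past its 9 fingers, a join that a reference transcript also has.

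**Figure D2:**
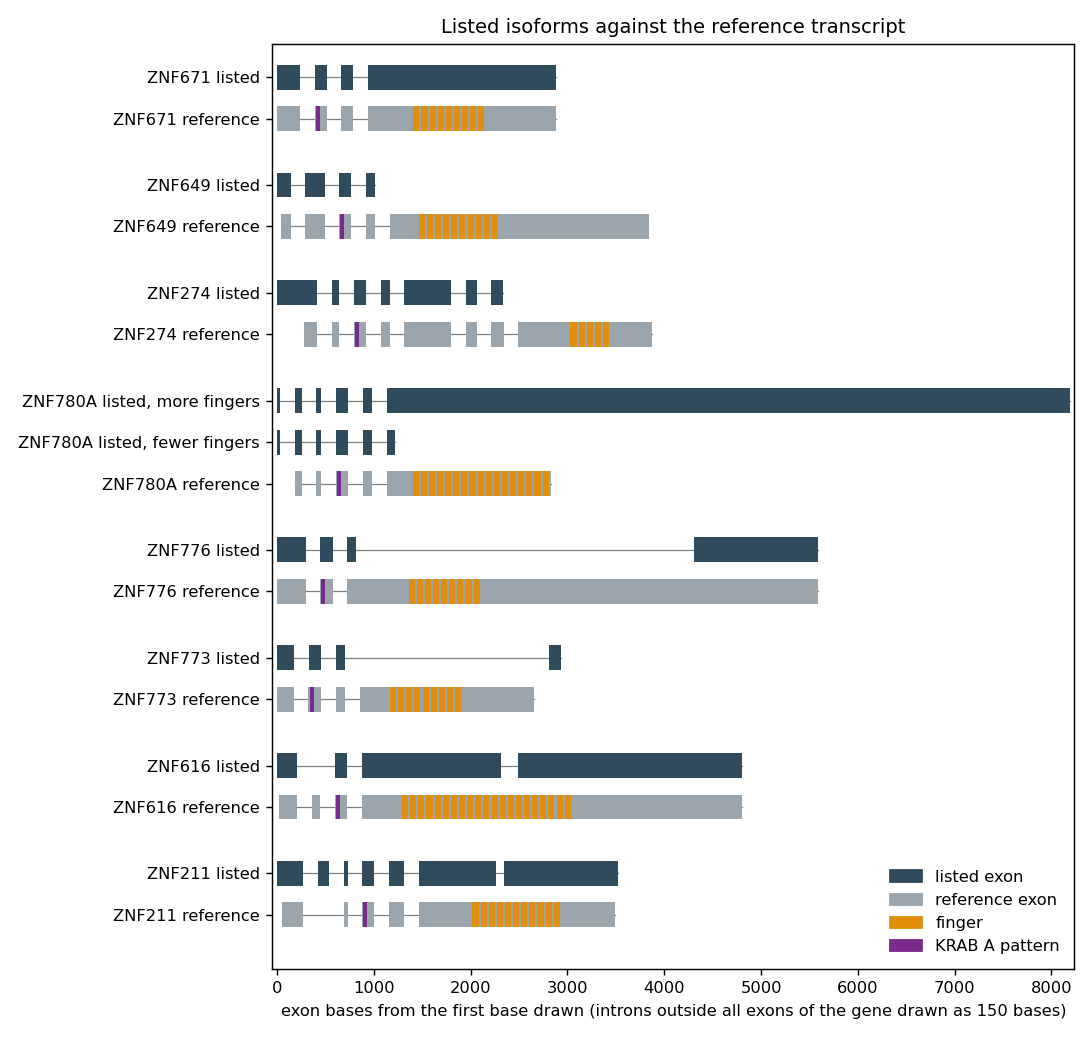
Listed isoforms (dark) above the reference transcript with most fingers (grey) for 8 genes, in exon bases from the first base drawn, with introns outside all exons of a gene drawn as 150 bases. Orange marks fingers and purple the KRAB A pattern; ZNF671 holds all 9 fingers, ZNF649 and ZNF274 end before them, ZNF776 and ZNF773 pass over them, and ZNF616 and ZNF211 list introns inside them.

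A feature of the rows themselves went with the missing fingers. In 66 of the 148 genes (44.6%, 36.8 to 52.6) at least 1 isoform had its last exon row written a second time, against 31.5% of all genes. The share was 34.9% (28.8 to 41.5) in ZNF genes on other chromosomes, an overlapping interval, and 28.9% (25.8 to 32.2) in other chromosome 19 genes. Of 40 distinct isoforms with a repeated last row in placed genes, 32 (80%) held no finger, against 27 of 109 without it (24.8%). All isoforms carried the repeat in 31 of the 44 genes with no finger and in 4 of the 58 with all. Without such isoforms, 14 of 78 genes had no finger (17.9%, 11 to 27.9), against 14 of 139 ZNF genes on other chromosomes (10.1%, 6.09 to 16.2). The file does not say what the repeat marks, and its part in the missing fingers was not tested. A finger exon that is not listed is therefore not shown to be absent from the RNA.

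The same count can be made for any gene by asking whether a base of its last coding exon was listed. None was in 40 of 116 chromosome 19 ZNF genes (34.5%, 26.5 to 43.5), 43 of 183 ZNF genes on other chromosomes (23.5%, 17.9 to 30.1) and 124 of 599 other chromosome 19 genes (20.7%, 17.6 to 24.1), and over all genes the share was 23.7%. Among genes with the repeat in every isoform the shares were 28 of 37 (75.7%) for the chromosome 19 ZNF genes and 86.5% for all genes. Among the others they were 12 of 79 (15.2%, 8.91 to 24.7) and 8.24% (7.69 to 8.83). All isoforms ended exactly at a reference donor in 35 of 117 (29.9%, 22.4 to 38.7), against 18.8% of all genes.

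**Figure D3:**
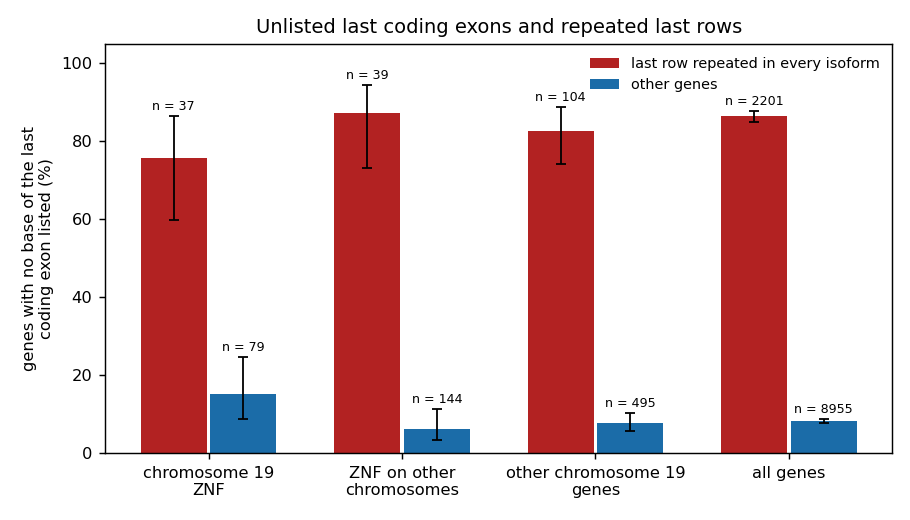
Share of placed genes with no base of the last coding exon listed (percent, vertical axis), for genes whose isoforms all have a repeated last row (red) and other genes (blue), with 95% Wilson intervals and n. The red bars lie between 75.7% and 87.2% and the blue bars between 6.25% and 15.2%.

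Final exons were measured next, without use of the reference. Of the 148 genes, 123 had an intron. Their longest final exon had a median of 1396 bases (quartiles 127 and 3188), against 1704 bases for ZNF genes on other chromosomes and 569 for other chromosome 19 genes. It reached 1000 bases in 69 of 123 (56.1%, 47.3 to 64.6), 123 of 189 (65.1%, 58 to 71.5) and 232 of 686 (33.8%, 30.4 to 37.4), against 49.4% of all genes with an intron. Just inside this bound lay ZNF446 with 1055 and ZNF175 with 1061 bases, and just outside it ZNF45 with 995 and ZNF579 with 960. The distribution had a second group of short ends: 35 of 123 (28.5%, 21.2 to 37) had a longest final exon of at most 130 bases, a bound set after the values were seen, against 12.8% of all genes. Exon lengths of 96, 93, 61, 83 and 127 bases were the most frequent among final exons, with 9, 5, 4, 4 and 3 of them.

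**Figure D4:**
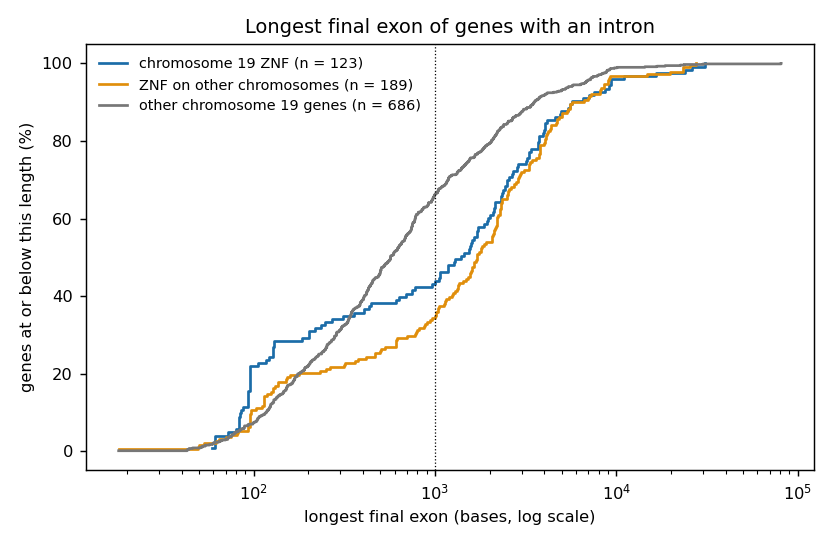
Percent of genes with an intron (vertical axis) whose longest final exon is at or below a length (bases, log scale). The chromosome 19 ZNF genes (blue, n = 123) rise steeply near 100 bases and again above 1000 bases (dotted line), where 56.1% of them lie.

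Of the longest final exons, that of ZNF833P, a pseudogene by its reference name, had 31020 bases, that of ZNF114 26147, ZNF44 23822, ZNF536 16598 and ZNF738 11077. ZNF833P, ZNF114 and ZNF44 each had 1 isoform, and its last row was repeated. The exon of ZNF44 held all 14 fingers and ended at a reference donor, 22168 bases past the stop codon. That of ZNF536, which has no KRAB pattern, held none of its 10. Another isoform of ZNF536, with exons of 70, 2172, 153 and 1572 bases, listed all 10. These fingers span 2679 coding bases in the reference, more than the 2172 bases of the exon with most of them. In 5 of the 71 genes with any finger, an isoform's finger exon covered an intron that a reference transcript of the gene has before the fingers, in ZNF302 (2146 bases), ZNF599 (9335), ZNF772 (5560), ZNF530 (3991) and ZNF132 (6579). The shortest were single exons: ZNF134 with 41 bases and ZNF524 and ZNF525 with 44 bases, followed by ZNF584 with a final exon of 59 bases and ZNF440 with 61.

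Genes without any intron made up 25 of 148 (16.9%, 11.7 to 23.7), against 9.18% of all genes. The share was 10.8% (7.34 to 15.8) in ZNF genes on other chromosomes and 11.5% (9.43 to 13.9) in other chromosome 19 genes. Both of these intervals overlap that of the chromosome 19 ZNF genes. Their 1 exon had a median of 146 bases and was shorter than the reference finger stretch in 23 of the 24 with a reference. The exception was ZNF585B, with 2108 bases. The exon matched a reference first exon in length within 2 bases in 10 of 24. A repeated last row was present in 23 of the 25, a share that was not counted for intronless genes of the other sets.

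More than 1 final exon was listed for 18 of 123 genes (14.6%, 9.46 to 21.9), 46 of 189 ZNF genes on other chromosomes (24.3%, 18.8 to 30.9) and 128 of 686 other chromosome 19 genes (18.7%, 15.9 to 21.7), against 22.5% of all genes. ZNF333, which has a KRAB domain, had 4 final exons. Those of 3160, 3080 and 2565 bases ended after 7 introns, with no finger and without the KRAB A pattern searched for here. That of 1508 bases ended after 12 introns with this pattern and 10 of 10 fingers. The pattern can miss a KRAB domain, so the shorter isoforms are not shown to lack one. ZNF530 had 3, of 3991, 3988 and 2582 bases, and all held its 13 fingers. The other genes with most final exons had 2 each. ZNF224, a KRAB repressor, had 0 and 16 of 18 fingers in its isoforms, ZNF175 0 and 9 of 13, ZNF283 0 and 15 of 15, and ZNF414 2 and 3 of 3. Both isoform kinds of ZNF431 held 12 of 12 fingers, and both of ZNF264 held 0 of 13.

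Isoforms with and without fingers stood side by side in 10 of 115 placed genes (8.7%, 4.79 to 15.3). These were ZNF627, ZNF625, ZNF333, ZNF536, ZNF599, ZNF780A, ZNF283, ZNF224, ZNF175 and ZNF528. In ZNF780A all ends shared 1 acceptor, and isoforms with 7057 and 5203 bases held 17 of 17 fingers while those with 95 and 86 bases held 0. ZNF528 had 15 of 15 fingers with 3281 bases and 0 with 230, again from 1 acceptor. ZNF627 left its finger exon out by an exon of 318 bases, which follows its second exon, while its long form had 2441 bases and 11 of 11 fingers. Counted against the longest final exon of each gene alone, an isoform ended upstream of it in 2 of the 69 genes where it had at least 1000 bases, ZNF627 and ZNF283 (2.9%, 0.799 to 9.97), against 14.1% of all genes. In ZNF283 that early exon had 1029 bases and followed 6 introns. This measure, the same for all genes, misses an early end whose exon is itself the longest final exon of the gene. Such ends were those of ZNF333 (3160 bases), ZNF536 (16598), ZNF224 (2329), ZNF175 (1061) and ZNF738 (11077), among others. The 2.9% is therefore not the share of genes with any early end.

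Starts did not vary in this file. No chromosome 19 ZNF gene had a second first-exon donor (0 of 123), and neither did any of the 12462 genes with an intron (0%). The file therefore cannot show whether these genes differ from others in their starts. Internal exons were compared by length instead. Of 373 internal exons, 89 had 127 bases (23.9%), the length of the KRAB A exon, against 0.622% of 123532 internal exons of genes without a ZNF name of this form. ZNF genes on other chromosomes are not in that set. Their median internal exon, in the isoform with most introns, had 127 bases, against 122 in the chromosome 19 ZNF genes. An exon of 127 bases was listed in 91 of the 123 genes. ZNF460 joined a first exon of 351 bases directly to its finger exon of 2871 bases, without the KRAB A exon of 127 bases that the reference places between them, and held 11 of 11 fingers. The isoform with most introns had a median of 3 introns (quartiles 3 and 5), against 5 in ZNF genes on other chromosomes, 7 in other chromosome 19 genes and 8 in all genes. In genes with at least 2 introns, the first intron had a median of 2667 bases and the last 989, against 2945 and 1245 in all genes.

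Several introns inside the finger exon were whole multiples of the finger repeat. In the placed genes, 19 listed introns lay wholly inside a reference exon, and 7 of them (36.8%, 19.1 to 59) were exact multiples of 84 bases. The share was 8 of 36 (22.2%, 11.7 to 38.1) in ZNF genes on other chromosomes, 1 of 48 in other chromosome 19 genes and 2.78% over all genes. Of the 9 introns between the first and the last finger of a gene, 7 were multiples of 84. These 7 were ZNF45, ZNF841, ZNF616, ZNF224 and ZNF587 with 168 bases, ZNF160 with 336 and ZNF211 with 84. The other 2, in ZNF823 and ZNF101, had 118 and 280 bases.

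**Figure D5:**
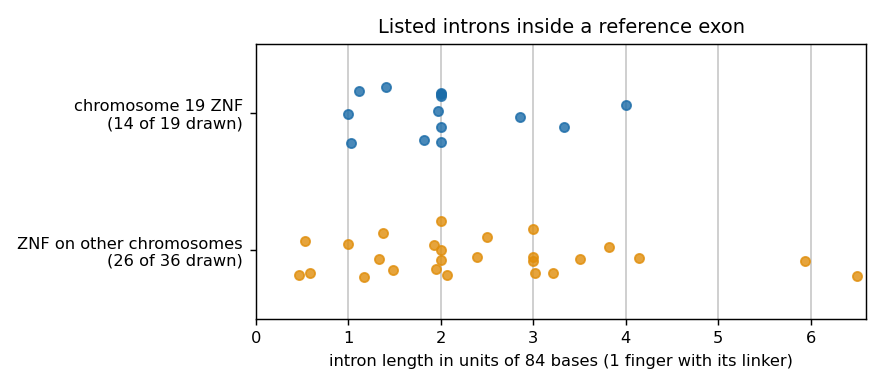
Lengths of listed introns inside a reference exon in units of 84 bases, with grey lines at whole units and points spread vertically; introns above 6.5 units are not drawn. In the upper row 7 of 19 introns of the chromosome 19 ZNF genes lie exactly on a line. For the lower row, 8 of 36 introns of the ZNF genes on other chromosomes are whole units, of which that of ZNF84 (924 bases) is not drawn.

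The bases at the 2 edges of these introns repeat each other. In the sequences below, the listed intron is as long as the distance between the start of the first and the start of the second run of capitals, and both runs have the same letters. Because of the repeat, the intron can be moved along the run without any change in the joined sequence. They lie at chr19:57641485-57641598 (ZNF211, plus strand), chr19:57859865-57860052 (ZNF587, plus), chr19:52115408-52115585 (ZNF616, minus) and chr19:52066065-52066279 (ZNF841, minus) of GRCh38.
ZNF211: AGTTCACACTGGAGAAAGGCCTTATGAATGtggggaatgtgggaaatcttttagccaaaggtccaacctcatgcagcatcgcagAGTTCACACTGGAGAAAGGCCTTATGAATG
ZNF587: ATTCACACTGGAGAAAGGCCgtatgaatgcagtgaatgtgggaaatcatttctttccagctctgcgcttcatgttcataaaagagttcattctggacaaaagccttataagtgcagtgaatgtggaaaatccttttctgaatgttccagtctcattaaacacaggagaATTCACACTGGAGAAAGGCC
ZNF616: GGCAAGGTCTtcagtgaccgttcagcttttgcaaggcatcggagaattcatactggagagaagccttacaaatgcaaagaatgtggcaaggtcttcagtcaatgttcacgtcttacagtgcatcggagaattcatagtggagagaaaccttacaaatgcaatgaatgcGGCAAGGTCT
ZNF841: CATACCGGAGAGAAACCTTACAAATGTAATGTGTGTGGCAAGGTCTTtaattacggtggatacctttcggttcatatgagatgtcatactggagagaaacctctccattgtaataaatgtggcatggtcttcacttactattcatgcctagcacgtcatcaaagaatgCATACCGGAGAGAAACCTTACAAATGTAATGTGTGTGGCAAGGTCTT

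The repeat had 30 bases in ZNF211, 20 in ZNF587, 10 in ZNF616 and 47 in ZNF841. It had 16 in ZNF160, 6 in ZNF45 and 2 in ZNF224, against 0 to 4 bases at the edges of the 11 other introns that could be read. As listed, 5 of the 7 introns begin with GT and end with AG, and those of ZNF211 and ZNF587 begin with GC, while all 11 others have GT and AG. The part of the repeats in how reads were joined was not tested. The 7 introns were picked as whole multiples of the finger repeat, and so of a codon. Leaving them out therefore keeps the frame by construction, and only a codon at the join could become a stop. Joined across the intron, the reference coding sequence had 0 stop codons inside in each of the 7 genes. It then coded 10 fingers where the reference of ZNF211 has 11, 11 of 13 in ZNF587, 19 of 21 in ZNF616, 18 of 20 in ZNF841, 16 of 20 in ZNF160, 13 of 15 in ZNF45 and 17 of 18 in ZNF224.

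The 7 genes with these introns are among the 13 listed with part of their fingers. Fingers were missing between listed ones in 9 of the 13, after the last listed one in 5 and before the first in 1. ZNF841 had 3 missing between and 4 after, where a second intron of 921 bases and a final exon of 85 bases follow, and was listed with 13 of 20. ZNF616 was listed with 18 of 21, ZNF45 with 12 of 15, ZNF160 with 15 of 20, ZNF211 with 10 of 11 and ZNF587 with 11 of 13. ZNF121 ended inside its finger exon with 4 of 9 fingers.

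Rows of 6 genes shared an exon with another zinc finger gene or had introns of its lengths and spacing. ZNF432 and ZNF841, both on the minus strand, shared a first exon of 191 bases (chr19:52598828-52599018, hg19) and its donor, the sole overlap of exons between members on 1 strand. From there ZNF432 crossed an intron of 48514 bases, which contained 8 of the 9 exons of ZNF841, to its own 3 reference introns, and it held 16 of 16 fingers. ZNF223 began with 3 introns that have the lengths and spacing of introns of ZNF222, followed by a join of 4327 bases, an exon of 20379 bases and 3 introns of its own reference. In ZNF763, 2 of 4 introns matched those of ZNF700 in the same way, and in ZNF833P 2 of 3 matched those of the pseudogene ZNF887P. All 5 introns of ZNF177 had the lengths and spacing of ZNF559 and of the reference readthrough ZNF559-ZNF177. ZNF222, ZNF700, ZNF559 and ZNF887P had no rows under their own names. Exon overlap with any listed gene on the same strand was found for 6 of 148 genes (4.05%, 1.87 to 8.56), against 1.76% of all genes. Other chromosome 19 genes had a similar share, 37 of 775 (4.77%, 3.48 to 6.51). So did ZNF genes on other chromosomes, with 7 of 212 (3.3%, 1.61 to 6.66).

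Genes on opposite strands also came close. ZNF565 and ZNF146 started head to head with spans that overlapped by 62 bases, and the starts of ZNF490 and ZNF791 lay 109 bases apart. Spans that met at their ends overlapped by more. With overlap counted as a negative gap, it was -6457 bases for ZNF227 and ZNF235 and -11153 for ZNF587 and ZNF814. The final exons of ZNF227 (2563 bases) and ZNF235 (5678 bases) overlapped. The ZNF814 intron of 29340 bases contained 2 of the 5 exons of ZNF587. ZNF565 was listed with 12 of 12 fingers and ZNF146 with 0 of 10, while ZNF490 had 13 of 13 and ZNF791 0 of 17.

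Genes with no listed finger lay along the whole chromosome. Genes less than 500000 bases apart were joined into neighbourhoods. The one with most genes, from ZNF264 to ZNF446 (chr19:57702869-58992597, hg19), had 33, and 11 of its 27 placed genes had no finger (40.7%, 24.5 to 59.3). From ZNF175 to ZNF813 this held for 3 of 17 (17.6%, 6.19 to 41), from ZNF575 to ZNF180 for 8 of 16 (50%, 28 to 72) and from ZNF653 to ZNF791 for 4 of 12 (33.3%, 13.8 to 60.9), with overlapping intervals.

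Of the fixed names, ZNF91 and ZNF93, known as repressors of SVA and L1 elements, and ZNF331 and ZNF382 had no row. In all, 146 of 246 protein-coding names of this form on chromosome 19 of the reference (59.3%, 53.1 to 65.3) were listed. The same share was not counted for other reference genes, so it is not shown to be particular to these names. The corepressors through which KRAB domains act were described by a list of 22 names, of which 21 had rows, FAM208A standing for the newer name TASOR. More than 1 final exon was listed for 7 of the 20 with an intron (35%), against 22.5% of all genes, among them SETDB1, the histone H3 lysine methyltransferase, the remodeller CHD4 and the DNA methyltransferase DNMT3A. The last coding exon was unlisted in 3 of the 20, CBX5 (HP1 alpha), CHD3 and HDAC1, or 15%, against 23.7% of all genes. TRIM28, which binds the KRAB domain directly, was listed as 1 exon of 200 bases.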

How the data were processed

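The 6 U-87 MG libraries (3 EPZ015666, 3 DMSO) were made from poly(A)-selected RNA with a TruSeq kit, per the labels' protocols. Per the submitters' processing notes, hg19 and GRCh37 were the builds and RSEM, bedtools 2.20.1, STAR 2.4.1d, DESeq 1.10.1 and Bowtie 1.0.1 the tools, with no role given. The deposited file holds exon start and end positions (bases, hg19) for all libraries together, so depth and precision per library are unknown. Expression tables were not analysed here, and the planned comparison of EPZ015666 with DMSO could not be fitted.

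A new isoform began at a new parent name or at a restart of the order along its strand (31659 isoforms). There were 76 rows with the end before the start, which were dropped, and the later of overlapping consecutive exons was kept (10093 places, 103 in the 148 genes). The 253 isoforms of these genes held 184 distinct ones. A final exon was told apart by its acceptor and a start by its donor.

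Genes were matched by name to GENCODE v29 (GRCh38). No coordinates were converted: reference features were placed by the most frequent distance between introns of equal length, or else by at least 2 splice sites, and ties (ZNF180, ZNF763) were left unplaced. ZNF180, ZNF763 and 28 others with fingers were not placed, 25 of the 148 genes having no intron. Fingers and KRAB patterns were read from translated reference transcripts, taking the one with most fingers per gene. A finger was called listed when all its bases lay in exons. Printed sequences are from GENCODE v29 transcripts. One reference sequence is not reported here. No genome of the file's build was used here.

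Shares carry 95% Wilson intervals, and no test was run, since no value per library exists. The members and lists were chosen with earlier results of these data known. Named genes were the 8 with most final exons, the 5 longest and 5 shortest by longest final exon, 2 on each side of 1000 bases, those that reach another member and 7 fixed names, and others were named after their values were seen. On planted structures from reference transcripts of 124 genes, finger numbers were recovered in 124 of 124 whole, ended-early, cut and 84-base-intron cases, which checks the code and gives no error rate. Python 3.11.15, statsmodels 0.14.6, Biopython 1.88 and matplotlib 3.10.9 were used. Alternatives were other length bounds, other ways to tell exons apart, other placements and leaving out repeated rows.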

Additional observations from a re-analysis of the deposited data

How the results depend on the processing

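No paired analysis was possible because exon positions are given for both treatments jointly, and the fit with a replicate block was not run. Of 26 alternative values, 23 stayed within the 95% interval of the reported share, or within the quartiles for the median intron number, and 3 did not. Final exons told apart by acceptor and end gave 22% of genes with more than 1, in place of 14.6%. Leaving out isoforms with a repeated last row gave 17.9% of genes with no finger, in place of 38.3%. Counting only introns between the first and last finger gave 77.8% multiples of 84, in place of 36.8%. The first and last of these change by their own construction, and for the other the cause was not tested. The alternatives to finger coverage, last coding exons, intron multiples and neighbouring reference introns were chosen after seeing the data. Shares over 115 genes have wide intervals, such as 29.9 to 47.4%, depth is unknown, and the file cannot show how much RNA any isoform stood for.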
